A study of Macaca mulatta with 22 samples.

Results

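DNMT3A, KDM4B, CHD5 and MEF2D, genes of DNA methylation, histone demethylation, chromatin remodelling and neuronal transcription, were followed through 11 lists of m6A peaks, made from infant prefrontal cortex of the rhesus macaque. They are 4 of the 3671 genes with a peak in any animal. A peak was assigned by the Ensembl macaque gene in which it was called, and 36 of the 10069 peaks lay in these 4 genes. The genes were chosen by the presence of called peaks: all 5 sevoflurane animals and at most 1 control animal had a peak in them. Presence by group is therefore given below as a description and carries no test. The sevoflurane group held males D and S1 and females F, S2 and S3, which had breathed sevoflurane at about 2.5 to 3% in 3 sessions of 4 h, near postnatal days 7, 21 and 35. The control group held males A and B and females C, C1, C2 and C3. All animals were labelled postnatal day 35, and each list came from 1 animal. What the control animals inhaled, and the time between the last exposure and tissue collection, are not given here.

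m6A is a methyl group placed on adenosines of mRNA by a nuclear methyltransferase complex, and reader proteins that bind it alter splicing, export, translation and decay. It is known to lie mostly in long internal exons, around stop codons and in 3' UTRs. DNMT3A is a de novo DNA methyltransferase that in mouse and human neurons also methylates cytosines outside CpG sites after birth. KDM4B is a demethylase of histone H3 lysine 9 and lysine 36. CHD5 is a neuron-enriched helicase of the NuRD remodelling and deacetylase complex. MEF2D is a MADS-box transcription factor that couples calcium signals to gene expression in neurons. Sevoflurane is an inhaled anaesthetic that potentiates GABA type A receptors.

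The lists differed in length, which bears on every count below. Sevoflurane lists held 1217 ± 295 peaks (SD, n = 5) and control lists 664 ± 282 (SD, n = 6), a log2 difference of 0.93 (exact two-sided permutation over 462 splits, p = 0.0152). Control animal C3 stood apart with 1210 peaks, inside the sevoflurane range of 852 to 1673, while the other control lists held 452 to 703. Read totals are not part of the files, so depth is unknown and its part in these lengths was not tested. RNA levels were not compared, and in bulk tissue fewer cells of a type and less RNA per cell cannot be told apart. Of the neuron markers, 4 of 9 had a peak, with NEFM, a neurofilament subunit, in 5 of 5 sevoflurane and 6 of 6 control animals, the splicing factor RBFOX3 in 3 and 4, the synaptotagmin SYT1 in 0 and 2, and NEFL in 1 and 0. Endothelial markers and markers of muscle or skin had a peak in 0 of 4 each, astrocyte markers in 2 of 6, microglia markers in 1 of 5 and oligodendrocyte markers in 1 of 5. Oligodendrocyte precursor markers had one in 2 of 4, 0 to 2 per sevoflurane animal and 0 per control animal, and their part in the results was not tested.

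Among the 1486 genes with a peak in 2 to 9 animals, 11 (0.74%) met the same rule of 5 sevoflurane and at most 1 control animal, 4 with 0 controls and 7 with 1. Just outside it lay 17 genes with 5 sevoflurane and 2 control animals, 16 with 4 and 0, and 34 with 4 and 1. Most genes leaned the same way. A peak was found in a larger share of sevoflurane than of control animals for 83.2% of the 1486 genes, and the median difference in share was 23.3 percentage points. As the groups held 5 and 6 animals, equal numbers count as a larger sevoflurane share, here and in the lists below. A gene in 1 and 1 animals, for example, had a difference of 3.3 percentage points. With Fisher's exact test, 27 genes (1.82%) had a higher share of sevoflurane animals at an unadjusted p under 0.05, and 0 (0%) a higher share of controls. After Benjamini-Hochberg adjustment 0 (0%) remained under 0.05 in either direction, the smallest adjusted p being 0.606. Of the genes just outside the rule, 2 related to the present set were chosen after their values were seen. NSD2, a histone H3 lysine 36 methyltransferase, had peaks in 4 sevoflurane and 0 control animals, and SRF, a MADS-box factor like MEF2D, in 4 and 1. All genes just outside the rule have more sevoflurane than control animals by definition, so the direction of these 2 was fixed in advance.

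All 5 sevoflurane animals had peaks in all 4 genes. Summed over the 4 genes, D had 7 peaks, F 6, S1 4, S2 9 and S3 4, against 5 in C3, 1 in C and 0 in A, B, C1 and C2. The control range of 0 to 5 thus overlapped the sevoflurane range of 4 to 9 through C3 alone. As a share of the animal's own list this was 0.611% in D, 0.509% in F, 0.469% in S1, 0.538% in S2 and 0.324% in S3, against 0.413% in C3 and 0.207% in C. The share in C3, the control list of sevoflurane length, lay within the sevoflurane range. C3 carried the single control presence of both KDM4B and CHD5, C that of MEF2D, and DNMT3A had none.

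**Figure D1:**
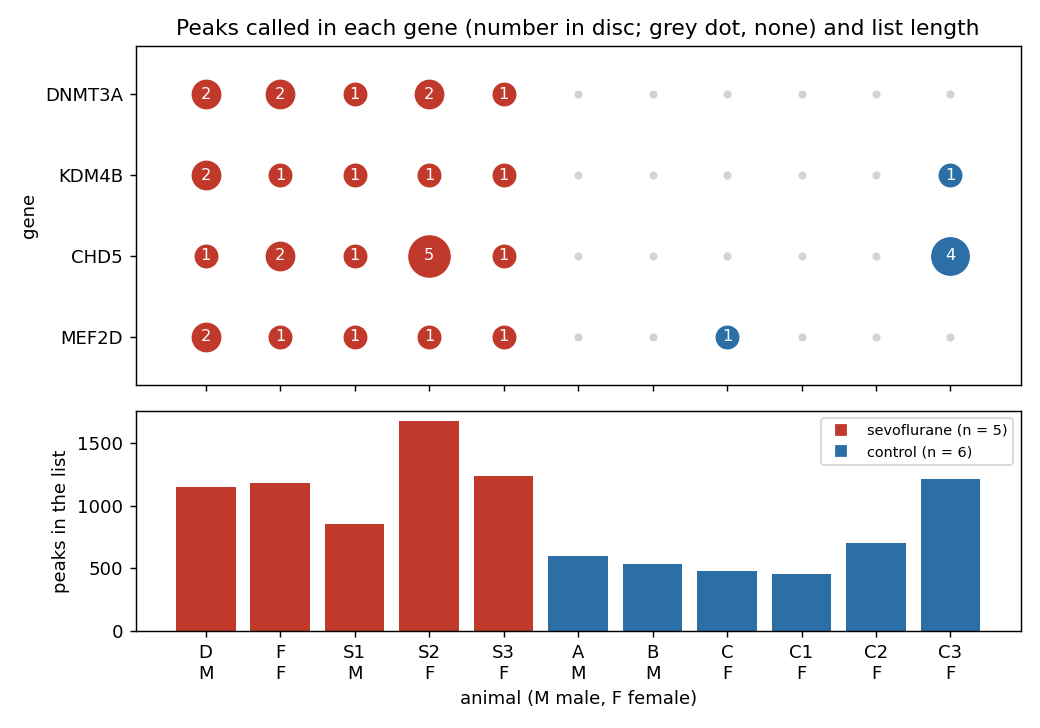
Upper panel: number of peaks called in each gene (rows) in each animal (columns), with a grey dot where none was called. Lower panel: number of peaks in each animal's list (sevoflurane red, n = 5; control blue, n = 6). Every red column has a disc in all 4 rows, and among the controls discs stand in C3, whose list of 1210 peaks is as long as the sevoflurane lists, and in C.

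DNMT3A had 8 peaks in sevoflurane animals and 0 in controls, and every sevoflurane animal had the same stretch. The gene, ENSMMUG00000013565, spans chromosome 13 from 25477990 to 25562850 on the minus strand (rheMac8). A stretch of 120 bp from 25528206 to 25528325 was contained in 1 peak of each of D, F, S1, S2 and S3. It lay 50.3 kb of genomic distance from the annotated 3' end, and the one-block peaks over it fell in the fourth of 23 annotated exons from the 5' end. The peak in S2 was the widest, with a block of 291 bp over the stretch and 2 small blocks elsewhere, so that it spanned 25521333 to 25546388. Fold enrichment is the authors' own value for each peak, and whether each animal's input library was its background is not given here. For these peaks it was 3.14 in D, 4.39 in F, 3.32 in S1, 5.86 in S2 and 4.23 in S3. Within their own lists these values stood at percentiles 18.9, 33.8, 15.9, 51.9 and 41.7, so that 4 of the 5 lay below the middle of the list.

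A second DNMT3A stretch had a higher fold enrichment and was less widely shared. It covered 25494100 to 25494567 in 2 blocks, with a fold enrichment of 19.8 in D and 12.8 in S2, at percentiles 77.4 and 75.8. The peaks of D and S2 had 91 exonic bases in common there, 16.5 kb from the 3' end. By p-value these peaks stood at percentiles 60.3 in D and 27.3 in S2. The peaks of the same animals over the first stretch stood at 27.4 and 70.9, so the order differed between D and S2. F alone had a peak from 25487969 to 25490299, with a fold enrichment of 5.67 (percentile 46.6). S1 and S3 had neither of these.

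The DNMT3A peaks sat in the middle of the lists by p-value. The rank of the best DNMT3A peak by the authors' p-value was 454 of 1146 in D, 464 of 1178 in F, 386 of 852 in S1, 487 of 1673 in S2 and 426 of 1236 in S3. When every list was cut to the 452 peaks of the shortest one, DNMT3A therefore stayed in S1 and S3 only, and D and F missed the cut by a few ranks. At a stricter limit of 1e-05 on the peak's p-value it stayed in all 5 sevoflurane animals and in 0 controls. In D it stayed only through the peak at the second stretch, which also gave the rank of 454. The D peak over the stretch shared by all 5 had a p-value of 1.6e-05 and did not meet this limit.

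KDM4B had 6 peaks in sevoflurane animals and 1 in a control animal, and the same stretch was called in all 6 of these animals. The gene, ENSMMUG00000012677, spans chromosome 19 from 5126828 to 5309815 on the plus strand (rheMac8). A run of 91 bp from 5275441 to 5275531, in exon 12 of 24 and 81.2% of the way along the gene, was contained in a peak of D, F, S1, S2, S3 and C3. Fold enrichment there was 2.73 in D, 4.54 in F, 6.84 in S1, 19.2 in S2 and 4.49 in S3, against 5.66 in C3. The C3 value lay between the sevoflurane values, and the C3 peak had the same ends as that of S1, 5275381 and 5275531. By percentile within the list the values were 10.9 in D, 35.0 in F, 56.1 in S1, 81.5 in S2 and 44.3 in S3, against 51.2 in C3. In F, S2 and S3 the peak held a further block some 11 kb downstream, and in D, S1 and C3 it did not. That block was small, with 4 bp in F, 34 bp in S2 and 4 bp in S3, and S2 had another of 6 bp upstream.

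D had a further KDM4B peak, in the authors' 5' UTR class, between 5174806 and 5190299. With a p-value of 2.6e-04 it ranked 1125 of 1146 in that list. At the stricter limit of 1e-05 KDM4B was no longer present in D, whose main peak had a p-value of 6.9e-05, and it stayed in 4 sevoflurane animals and in C3. With lists of equal length it stayed in S1 and S2 and in 0 controls.

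**Figure D2:**
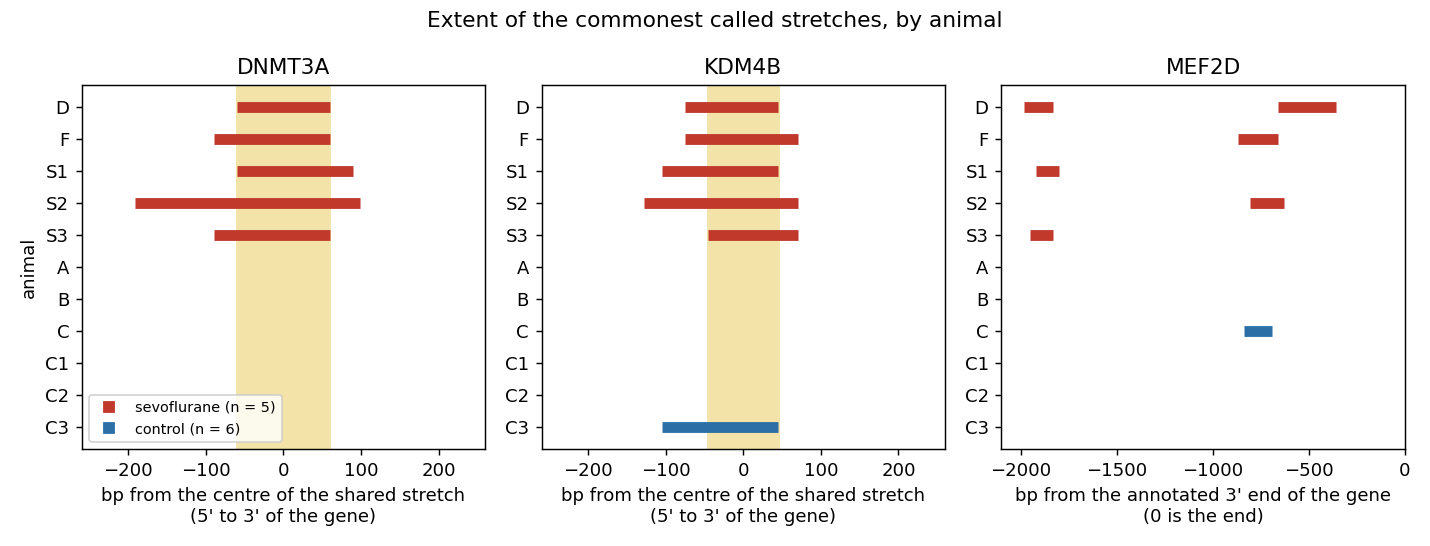
Extent of the called exonic blocks by animal (rows; sevoflurane red, control blue), against distance in bp from the centre of the stretch common to all peaks for DNMT3A and KDM4B (yellow band, 120 and 91 bp), and from the annotated 3' end for MEF2D. The red bars of D, F, S1, S2 and S3 cross the band in both left panels, with C3 beside them for KDM4B, while the MEF2D bars fall into 2 places.

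MEF2D had 6 peaks in sevoflurane animals and 1 in a control animal, all in the last 2 kb of the gene but in 2 places. The gene, ENSMMUG00000016696, spans chromosome 1 from 131085286 to 131121061 on the minus strand (rheMac8). The first place lay in the last of 11 annotated exons, from 131085645 to 131086154, and was called in D, F and S2 and in control C. Fold enrichment there was 9.68 in D, 4.29 in F and 5.38 in S2, against 2.99 in C. The second place lay in the tenth exon, from 131087087 to 131087267, and was called in D, S1 and S3 with a fold enrichment of 3.70, 3.81 and 3.00. D was the one animal with both.

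The agreement at the first place was partial. The peak of D ended at 131085945, the base at which that of F began, and it met that of S2 as well, so that the 3 sevoflurane peaks had that 1 base in common. That of C began at 131085975, beyond the end of D, and the 4 peaks had no base in common. Those of F, S2 and C had 120 bp in common, from 131085975 to 131086094. The second place held 91 bp common to its 3 peaks, from 131087117 to 131087207. By percentile of enrichment the strongest MEF2D peak stood at 63.4 in D, 32.3 in F, 23.3 in S1, 48.7 in S2 and 17.9 in S3, against 7.45 in C. The control value, from 1 animal with a list of 483 peaks, was below all 5 sevoflurane values, and no test was made. Its fold enrichment of 2.99 was close to the 3.00 of S3, and by p-value the same peak stood at percentile 60.8, above those of S1 (51.4) and S3 (29.7). At the stricter limit, and also with lists of equal length, MEF2D was absent from S3 and present in 4 sevoflurane animals and in C.

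CHD5 had 10 peaks in sevoflurane animals and 4 in C3, scattered over 8 stretches, none of which was shared by all 5 sevoflurane animals. The gene, ENSMMUG00000016838, spans chromosome 1 from 5224329 to 5301946 on the minus strand (rheMac8). The commonest stretch, from 5284648 to 5293529 and 22.2% of the way from the 5' end by its largest block, was called in F, S2 and S3 and in C3. Fold enrichment there was 2.66 in F, 3.37 in S2 and 2.78 in S3, against 3.31 in C3, again inside the sevoflurane range. A second one, from 5273043 to 5275422, was called in F and S2 with 2.22 and 3.51, and in C3 with 3.71. Another, from 5275452 to 5276885, was called in D and S2 with 2.28 and 2.36.

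The remaining CHD5 stretches were each seen in 1 animal. S1 had its only CHD5 peak between 5254693 and 5257635, with a fold enrichment of 3.51. S2 had 2 more of its own, one of them 0.346 kb from the 3' end with a fold enrichment of 4.09. C3 had 2 of its own, with 2.95 and 2.53. The presence of CHD5 in 5 of 5 sevoflurane animals was thus put together from different parts of the transcript, unlike that of DNMT3A and KDM4B.

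**Figure D3:**
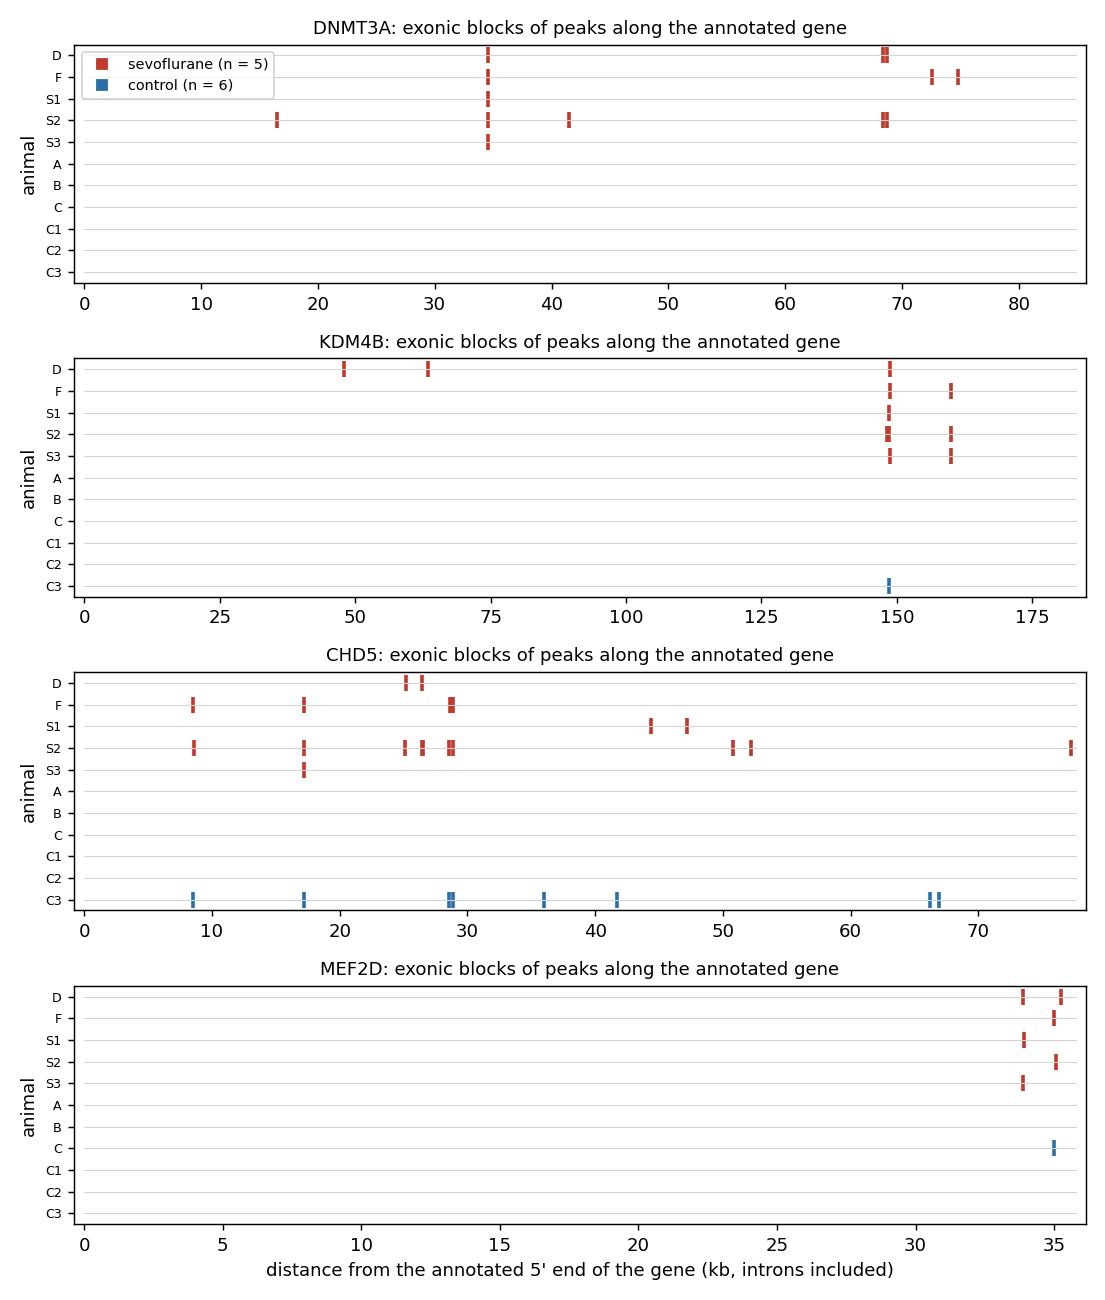
Exonic blocks of all peaks in the 4 genes by animal (rows; sevoflurane red, control blue), against distance from the annotated 5' end in kb with introns included. DNMT3A and KDM4B show 1 column of marks common to the sevoflurane animals, MEF2D marks sit near the 3' end, and CHD5 marks are spread over 8 stretches.

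CHD5 peaks ranked differently by the authors' 2 measures, as did those of its paralog CHD4 described below. Over the 4 genes, 20 of the 36 peaks (55.6%) were made of more than 1 exonic block, against 35.9% of all 10069 peaks. CHD5 gave 12 of these 20, and MEF2D gave 0. All 14 CHD5 peaks stood at percentile 36.3 or lower by fold enrichment. By p-value 11 of them stood at 74.7 or higher, and the other 3 at 49.4 (S1), 38.7 (S2) and 45.2 (C3). Each sevoflurane animal's best peak by enrichment and its best by p-value, which can be different peaks, had median percentiles of 11.003 and 90.3 for CHD5. These medians were 46.6 and 60.6 for DNMT3A, 44.3 and 55.9 for KDM4B, and 32.3 and 63.1 for MEF2D. With lists of equal length, which were cut by p-value, CHD5 stayed in all 5 sevoflurane animals and in C3.

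**Figure D4:**
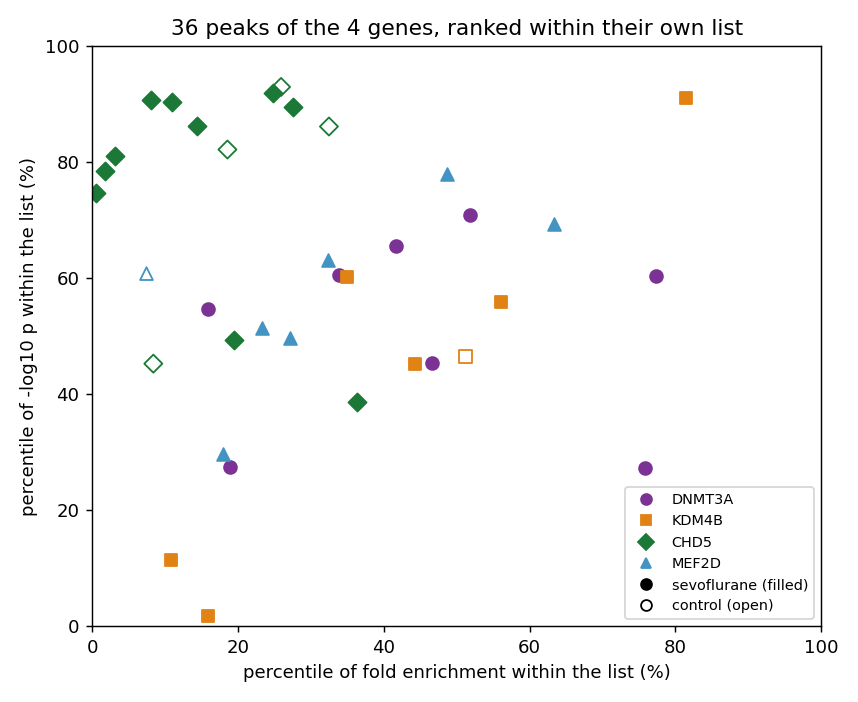
Each of the 36 peaks by the percentile of its fold enrichment (horizontal axis) and of its −log10 p (vertical axis) within its own list; symbols give the gene, filled for sevoflurane and open for control animals. CHD5 peaks lie at enrichment percentiles of 36.3 or less, 11 of the 14 at the upper left, whereas KDM4B runs to 81.5.

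Over the 4 genes the median fold enrichment was 3.605, against 6.03 for all peaks, while 31 of 36 (86.1%) met the limit of 1e-05 on the p-value, against 65.5% of all peaks. The 36 are repeated calls in 4 genes, not independent peaks, and all 14 of CHD5 met this limit. The genes were also chosen for calls in all 5 sevoflurane animals, which bears on these values. They are a description only. By the middle of their largest block, 18 of 36 lay beyond 80% of the gene's span, against 37.8% of the 9549 peaks whose called and annotated gene agreed. All 7 MEF2D and 6 of the 7 KDM4B peaks were among these 18, with 3 of DNMT3A and 2 of CHD5. The 6 of KDM4B were 1 stretch called in 6 animals, at 81.2%. The DNMT3A peaks of D and S2 at 80.6% were likewise close to the limit, and the span includes introns. The peaks were of usual size, with a median of 151 exonic bases against 150 for all peaks. The genes themselves ranged from 35.8 kb (MEF2D) to 183.0 kb (KDM4B), against a median span of 35.4 kb over 3513 genes with a peak.

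Of 10 paralogs of the 4 genes 5 had a peak. CHD3, like CHD4 and CHD5 a helicase of NuRD, had 2 to 4 peaks in each of the 5 sevoflurane animals and 2 or 3 in each of the 6 controls. Its strongest peak had a median fold enrichment of 12.8 (10.7 to 20.4) in sevoflurane animals and 18.1 (10.6 to 75.7) in controls, at median percentiles of 75.8 and 74.1. CHD4 had 1 peak each in 5 sevoflurane and 3 control animals (Fisher's exact p = 0.182, adjusted p = 0.606), with a median fold enrichment of 4.10 and 3.23. Its median percentiles were 29.2 by enrichment and 80.2 by p-value in sevoflurane animals, and 24.1 and 77.6 in controls. By p-value CHD3 stood at median percentiles of 96.7 and 93.6. A higher rank by p-value than by enrichment was thus not particular to CHD5. DNMT1, the maintenance DNA methyltransferase, had a peak in S2 and in C3. KDM4A had one in F and MEF2A in S3, and DNMT3B, KDM4C, KDM4D, MEF2B and MEF2C had none in any animal.

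The other genes of these pathways were counted by list, without the 4 genes. Of 23 further lysine demethylases 10 had a peak in any animal, with 3 to 6 per sevoflurane animal and 0 to 4 per control animal. All 10 had one in a larger share of sevoflurane animals. KDM5B, in 1 and 1, and KDM5C, in 5 and 5, count among them only because the groups hold 5 and 6 animals. These 2 were named after their values were seen. Most of the 10 had a peak in 1 sevoflurane animal and in 0 controls, so that their lean rests on 1 list each. KDM2A, a demethylase of histone H3 lysine 36, had peaks in 5 sevoflurane and 3 control animals (Fisher's exact p = 0.182, adjusted p = 0.606), KDM3B in 2 and 1, and KDM2B and JMJD1C in 1 and 0. Of the 23, 3 could be tested and 0 were under an unadjusted p of 0.05. The 83.2% of genes that leaned towards sevoflurane was counted over genes in 2 to 9 animals. Of these demethylases only the 3 tested belong to that set, so the 10 cannot be set against it directly.

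Of 21 other genes of the CHD and NuRD list 13 had a peak, with 5 to 8 per sevoflurane animal and 2 to 5 per control animal. Of the 13, 10 had one in a larger share of sevoflurane animals, 2 of controls and 1 in an equal share. Some of the 10 had equal numbers of animals in both groups. Only the 6 tested belong to the genes in 2 to 9 animals, so the 10 of 13 cannot be set against the 83.2% directly. Sevoflurane lists held more genes with a peak, 1043 on average against 601, and the share over all 3671 genes is not given here. RBBP7, a histone-binding subunit, had peaks in 5 sevoflurane and 3 control animals, CHD2 in 2 and 0, and MBD2, a methyl-CpG-binding protein also listed under DNA methylation, in 2 and 0. The 2 in the other direction, named after their values were seen, were CHD9, in 0 sevoflurane and 2 control animals, and CHD6, in 0 and 1. The median difference in share over the 6 tested was 40 percentage points, and 0 of the 6 had an unadjusted Fisher's exact p under 0.05. In the DNA methylation list 8 of 21 others had a peak, 5 in a larger share of sevoflurane and 3 of control animals. Some of the 5 had equal numbers of animals in both groups. Only 3 of the 8 were tested, so the 5 of 8 cannot be set against the 83.2% either. ZBTB4, which binds methylated DNA, had one in 5 of 5 and 5 of 6, the dioxygenase TET3 in 3 and 2, and the glycosylase TDG in 1 and 0. Genes of H3 lysine 9 methylation had few peaks, in 5 of 12. MPHOSPH8, a reader of that mark, had peaks in 0 sevoflurane and 2 control animals, SUV39H2 in 0 and 1, and EHMT1 and CBX3 in 1 and 0. The medians over the tested genes were 26.7 percentage points for DNA methylation (3 genes), 23.3 for the demethylases (3) and -13.3 for H3 lysine 9 methylation (2), against 23.3 over all 1486.

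Partners of MEF2D leaned either way. Of 18 genes encoding MEF2 relatives, class IIa deacetylases and other regulators, 10 had a peak, 7 in a larger share of sevoflurane and 3 of control animals. Some of the 7 had equal numbers of animals in both groups. Only 5 of the 10 were tested, so the 7 of 10 cannot be set against the 83.2% of genes in 2 to 9 animals. HDAC5, a deacetylase that represses MEF2 factors, had a peak in 4 of 5 and 6 of 6. The corepressor NCOR1 had one in 3 and 1, and the acetyltransferase CREBBP in 1 and 0. Of 11 genes known as MEF2 targets in neurons 4 had a peak, 1 to 4 per sevoflurane animal and 0 or 1 per control animal. The protocadherins PCDH10 and PCDH17 each had peaks in D, S1 and S2 and in 0 controls (Fisher's exact p = 0.0606, adjusted p = 0.606). The immediate early gene EGR1 had one in 1 and 0. The median difference in share was 10 percentage points for the regulators (5 tested) and 60 for the targets (2 tested), and 0 of these 7 genes had an unadjusted p under 0.05.

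**Figure D5:**
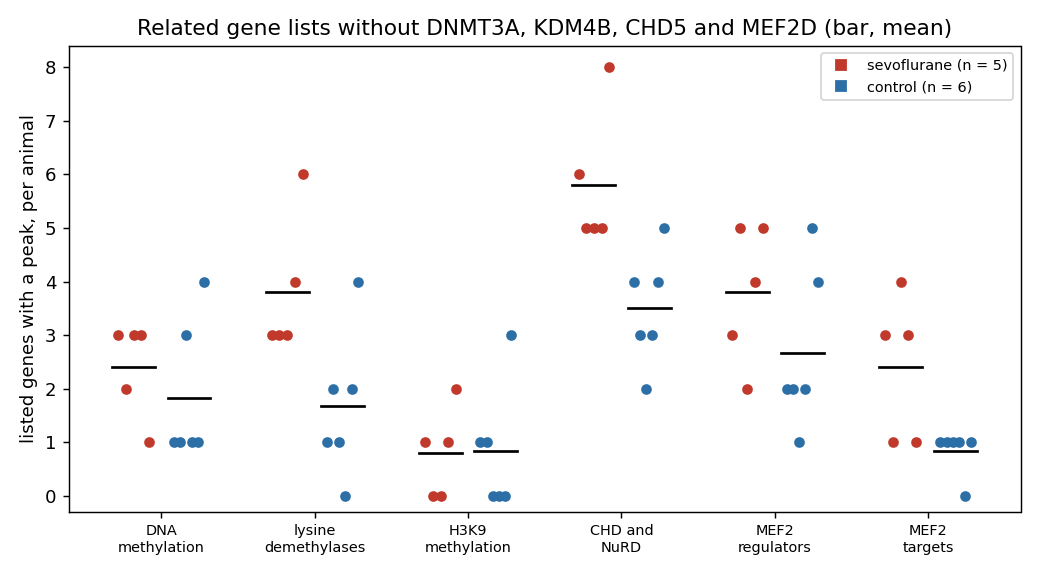
Number of listed genes with a peak in each animal, for 6 lists without the 4 genes themselves (sevoflurane red on the left of each pair, n = 5; control blue, n = 6; black bar, mean). The CHD and NuRD list runs from 5 to 8 in sevoflurane and from 2 to 5 in control animals, and the groups overlap in each list.

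By presence over the 11 animals, the genes most like each of the 4 were found with the Jaccard index, the share of animals in common. For DNMT3A these were DCTN3, N4BP3 and DLG3, at an index of 1, followed by KDM4B and CPLX3 at 0.833. KDM4B and CHD5 had the same pattern as each other and as ABI2 and DDX54, all with C3 as the control animal, at an index of 1. MIDEAS and APBB1 followed for both at 0.857. No other gene had the pattern of MEF2D. TMEM132D, MIDEAS, USP35 and BRSK2 came next at 0.857, each with C and 1 more control animal, and DCTN3 at 0.833. Genes present in all sevoflurane animals necessarily agree over those 5, so the index turns on the controls alone.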

How the data were processed

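Lists from the m6A-enriched RNA of 11 animals were used. The 11 input samples were not analysed here. HISAT2 2.1.0, StringTie, Trim Galore 0.5.0, cutadapt and the rheMac8 build are named in the submitters' processing notes, and the peak caller is not given in the sources used here. Each deposited list gives a peak's position, exonic blocks, p-value (at most 0.001), log10 p and log10 false discovery rate as negative scores, and fold enrichment as a ratio (at least 2.06), per the file headers. These values are the authors' own. Starts count from 0, and 1 was added. Exon numbers of minus-strand genes, which rose with the coordinate in all 99 transcripts tested, were counted back from the 5' end.

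Computed here were presence per gene, percentiles within a list (tied peaks shared a mean rank), and regions joining peaks with at least 1 exonic bp in common. List lengths were compared with exact permutation tests, and genes in 2 to 9 animals by Fisher's exact test with adjustment after Benjamini and Hochberg (Python 3.11.15, scipy 1.17.1), both tested on simulated data. Gene symbols came from the supplied table and the files, and 186 identifiers had none. The p-values of the permutation and Fisher's tests concern differences between the 2 groups, with each animal as 1 unit. A peak's p-value is the authors' own, belongs to 1 animal's list and carries no information on variation between animals.

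The 4 genes and the gene lists were chosen with earlier results of these data known. Besides the 4 genes and their paralogs, the text names up to 4 genes of each list by how far the shares of animals differ, then by number of animals and symbol, and up to 5 genes per member by Jaccard index, then by closeness of enrichment percentile; some list members that this takes are left out of the text. Alternatives were a peak p-value of at most 1e-05, lists cut to 452 peaks, the annotated gene, no filter on animals, other rankings, 50% reciprocal overlap, sex, naming style, a replicate block and leaving out each animal. No sequence is shown, as no genome of the files' build was used here.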

Additional observations from a re-analysis of the deposited data

Results flagged for a closer look

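C3 lay far above the other 5 control animals, with 1210 peaks, 1050 genes with a peak and 5 peaks in the 4 genes. The number of CHD5 peaks was 5 in S2, far from the 1 or 2 of the other sevoflurane animals, and 4 in C3, where the other controls had 0. KDM4B had 2 peaks in D, against 1 in each other sevoflurane animal, and 1 in C3, against 0 in the other controls. MEF2D had 2 peaks in D, against 1 in each other sevoflurane animal, and 1 in C, against 0 in the other controls. Of the 17 sets of values examined with Dixon's criterion 9 gave such a value. Chance flags about 1 set in 20, but counts of 0, 1 and 2 with many ties are easily set apart by it, and C3 or D accounts for 7 of the 9. The genes were also chosen for a peak in at most 1 control animal. The flags on control counts of KDM4B, CHD5 and MEF2D were therefore fixed in advance, and that chance rate is no yardstick for them.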

How the results depend on the processing

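The difference in list length of 0.93 (log2) ranged over 0.80 to 1.12 when each animal was left out (exact permutation p = 0.00794 to 0.0333), and that in genes with a peak over 0.75 to 1.02. Within males the 2 values were 0.80 and 0.70 (exact permutation p = 0.33, the smallest possible), within females 1.04 and 0.96 (exact permutation p = 0.0857), within single-letter animals 1.11 and 1.02 (exact permutation p = 0.10, the smallest possible) and within numbered animals 0.73 and 0.67 (exact permutation p = 0.20). With the replicate number as a block over 3 pairs they were 0.73 and 0.67 (exact permutation p = 0.25, the smallest possible). The numbers C1 to C3 and S1 to S3 name different animals, and presence deviations of same-numbered animals correlated at 0.06, 0.00016 and 0.02 over 1486 genes, so this pairing is only by number. In lists of equal length the genes differed by -0.029 (exact permutation p = 0.212), by construction of the cut. The 27 genes more often present after sevoflurane became 10 at the stricter limit and 4 with lists of equal length, and 31 to 85 when an animal was left out: 59 without C3, 46 without S2, 69 without S3, 85 without S1, 56 without F and 55 without D. Group sizes change with each omission, and the cause of the spread was not tested. In controls the count was 0 to 1, being 1 without B or C1. The 11 genes of the selection rule became 5 at the stricter limit and 2 with lists of equal length, and 13 to 29 when an animal was left out: 18 without D, 19 without F, 29 without S1, 24 without S3, 18 without C2 and 24 without C3. Sevoflurane animals with a peak became 4 for KDM4B and 4 for MEF2D at the stricter limit. With lists of equal length they became 2 for DNMT3A, 2 for KDM4B (0 controls) and 4 for MEF2D. Taking each animal's best peak by p-value, the median percentile of CHD5 was 90.3 in place of 11.003 and that of MEF2D 63.1 in place of 32.3. With 50% reciprocal overlap the commonest stretch was in 4 sevoflurane animals for DNMT3A, where the wide S2 peak fell away, and in 2 for CHD5. The annotated gene in place of the caller's left the presence of all 4 genes the same in every animal. What depth limits is unknown, since the lists carry no counts.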
